A study of Nicotiana benthamiana with 6 samples.

Results

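The snakin/GASA family of *Nicotiana benthamiana* was followed in leaves that overexpressed the banana gene *MaWRKY45*. The description centres on a peamaclein-like unigene (c80401_g1_i2) and a GASA5 unigene (c83661_g1_i1), which were picked because they moved in opposite directions in this same contrast. Their levels are therefore given as a description, without a test. Beside them stand all other unigenes (non-redundant assembled contigs) whose best NCBI protein match is from *Nicotiana* or *Solanum* and whose UniProt name contains gibberellin-regulated protein, snakin or peamaclein. These are 11 unigenes, so that the family as defined here holds 13 of the 167935 unigenes.

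Groups of 3 libraries were compared. Wild-type leaves of 5-week-old plants were infiltrated with *Agrobacterium tumefaciens* LBA4404 carrying pCAMBIA2200::*MaWRKY45*, in which the coding sequence stands behind the CaMV35S promoter (overexpression samples), or carrying the empty pCAMBIA2200 vector (mock samples). Both groups thus received the bacterium and the vector, and expression of the transgene was transient. Leaves were collected after 3 days, and each library held RNA pooled from 3 plants.

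Snakin/GASA proteins are small, secreted peptides of plants with a cysteine-rich C-terminal domain, the GASA domain. The family was first described through tomato GAST1, a transcript induced by gibberellin, and its members have been linked to cell elongation, flowering, seed germination and hormone crosstalk. Potato snakin-1 and snakin-2 inhibit the growth of bacteria and fungi in culture. Peamaclein is the name given to the family member known as a peach allergen.

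Depth and tissue set the frame for these values. The libraries held between 12031310 and 14285138 counts. One unigene, c147189_g1_i1, has a banana WRKY protein as its NCBI match but a viral transactivator of the kind encoded by caulimovirus as its UniProt match. It had 248, 332 and 267 TMM CPM (CPM, the counts relative to the library total, after TMM scaling, edgeR's correction for library composition) in the overexpression samples, against 118, 58.2 and 131 TMM CPM in the mock samples, so reads were assigned to it in both groups. Banana WRKY matches were also carried by c161890_g1_i1, with 8, 0 and 2 counts in overexpression samples and no count in mock samples. A further such match, c149239_g1_i1, had 2, 2 and 0 counts in overexpression samples, against 0, 1 and 0 counts in mock samples. The 41 unigenes fixed as leaf mesophyll markers (small subunit of Rubisco and chlorophyll a-b binding proteins) all had counts. They summed to between 5848 and 10310 TMM CPM in overexpression samples and between 9110 and 29000 TMM CPM in mock samples, and 5 of the 25 tested were called down and 1 up (at 2-fold or more and an adjusted p below 0.05 in edgeR, which 2.67 and 1.92% of all tested unigenes met), with a median log2 fold change of -1.34. Of the 35 epidermis and cuticle markers, such as 3-ketoacyl-CoA synthases, 17 were tested. Of these 0 were called up and 2 down, with a median log2 fold change of -0.44. The 35 summed to between 482 and 553 TMM CPM in overexpression samples and between 464 and 597 TMM CPM in mock samples. The root-type Casparian strip markers stayed at or below 1.68 TMM CPM in every library, summed over 5 unigenes. In whole leaves, fewer cells of a type and less RNA per cell cannot be told apart.

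The peamaclein-like unigene c80401_g1_i2 was nearly silent in mock leaves and present in every overexpression library. Its UniProt match is potato snakin-1, the antimicrobial peptide. Overexpression replicates 1, 2 and 3 gave 97, 139 and 115 counts, against 0, 1 and 0 counts in mock replicates 1, 2 and 3. In TMM CPM this was 7.68, 10.2 and 8.48 in overexpression samples, against 0, 0.0745 and 0 in mock samples. All 3 overexpression libraries lay far above all mock libraries, and the highest of them was only 1.32 times the lowest. From the summed counts, 351 against 1, the level was 337-fold higher in overexpression samples, with a 95% counting interval of 60.1 to 13350. This interval covers counting error only and leaves out the variation between plants and the choice of the unigene on this contrast. The ratio rests on 1 mock count, and edgeR's fit gave 246-fold. One more unigene from the same assembly component, c80401_g2_i1, carries no protein annotation and had 7, 4 and 3 counts in overexpression samples against 5, 4 and 4 in mock samples.

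The GASA5 unigene c83661_g1_i1 showed the opposite picture from a substantial starting level. The name GASA5 comes from the Arabidopsis match in its GO annotation, and its UniProt match is tomato RSI-1, a family member known from lateral root initiation. In Arabidopsis, GASA5 has been described as a repressor of flowering that also takes part in the response to heat. The unigene had 4.04, 2.42 and 3.02 TMM CPM in overexpression samples, against 18.3, 23.2 and 15.4 TMM CPM in mock samples. The groups did not overlap, with the highest overexpression library well under the lowest mock library. The mean was 3.16 ± 0.82 TMM CPM in overexpression and 19.0 ± 3.9 TMM CPM in mock leaves (SD, n = 3 libraries each). On the log2 scale the difference was -2.59 ± 0.27 (SE), or 6.01-fold lower. The mesophyll markers, given above, were also lower on the median in overexpression leaves. Their part in the level of this unigene was not tested.

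**Figure D1:**
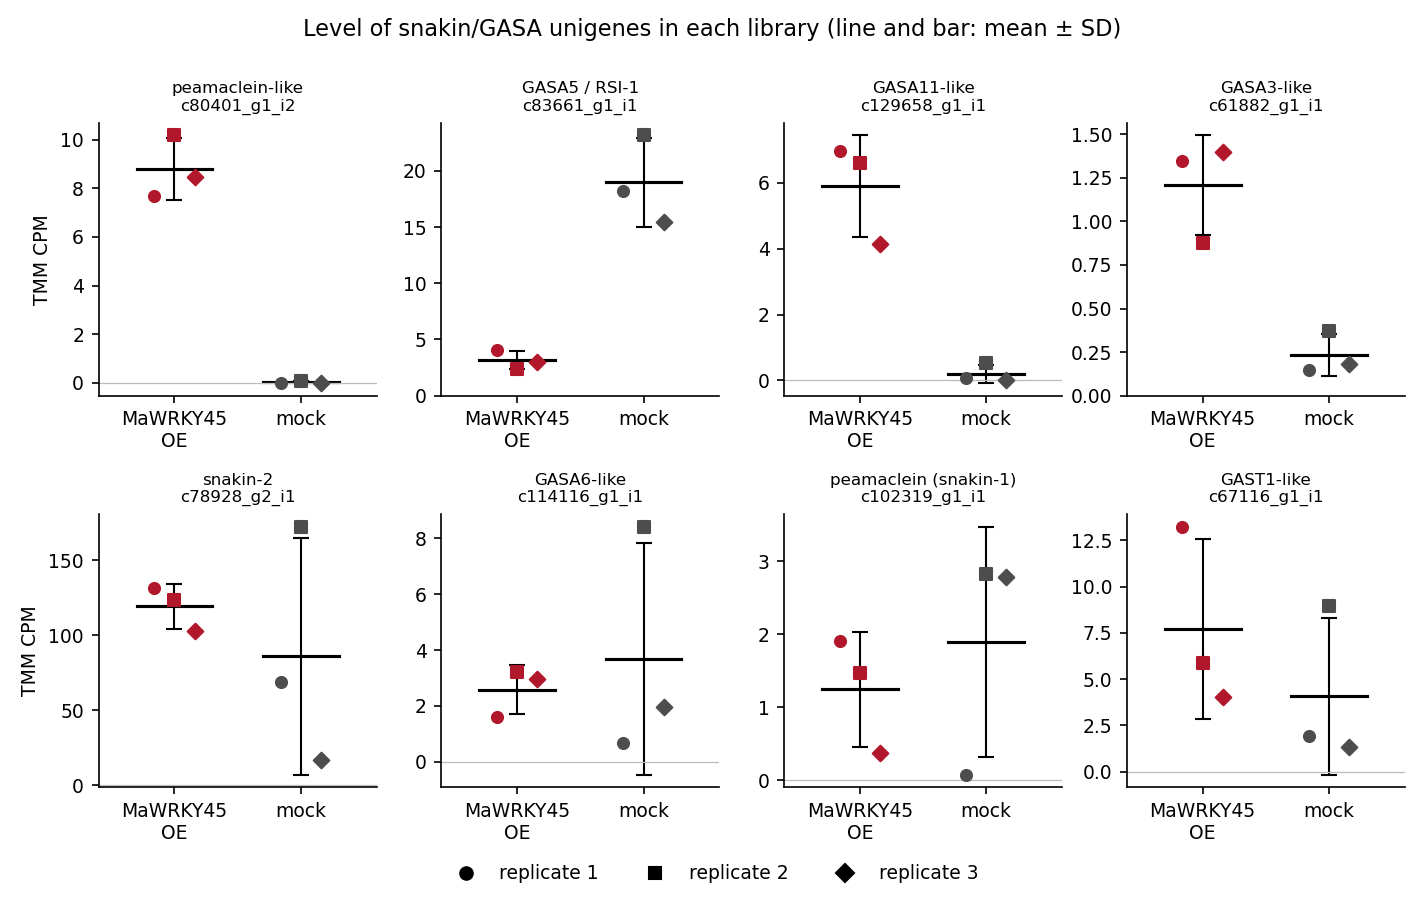
TMM CPM of 8 snakin/GASA unigenes in each library, overexpression (red) on the left and mock (grey) on the right of each panel. Symbols mark replicates 1, 2 and 3, and the line and bar give the mean ± SD. The peamaclein-like, GASA11-like and GASA3-like unigenes lie above mock in all 3 overexpression libraries and GASA5 lies below, whereas mock replicate 2 is the highest mock library for snakin-2 (172 TMM CPM), the GASA6-like unigene (8.42) and the GAST1-like unigene (8.94).

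Of the 11 other family unigenes, 7 passed edgeR's expression filter, and 2 of these were called, both up. A unigene was called when it changed 2-fold or more and its adjusted p was below 0.05. For all 37201 tested unigenes the share called was 4.59%, with 1.92% up and 2.67% down. None of the 7 was called down by edgeR, DESeq2 or limma-voom, and by edgeR none was lower at an unadjusted p under 0.05, against 10.3% of all tested unigenes. The median log2 fold change of the 7 was 0.47, with 5 higher and 2 lower in overexpression, beside a median of -0.01 for all tested unigenes. The libraries of the groups did not overlap in 2 of the 7, both higher in overexpression. Among all tested unigenes this held for 22.9%, and for 11.3% with overexpression above. The 2 called unigenes, GASA11-like and GASA3-like, passed the filter (0.763 CPM in 3 libraries) only through the overexpression group, since no mock library reached that level. A unigene of this kind had to differ between the groups. Among the 540 tested unigenes with no mock library over that level, 29.8% were called. The counts, the median and the lack of overlap are therefore a description of the unigenes that passed and not a result about the family.

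The GASA11-like unigene c129658_g1_i1 rose along with the peamaclein-like one. It had 88, 90 and 56 counts in overexpression samples, against 1, 7 and 0 counts in mock samples. As a level, this was 6.97, 6.59 and 4.13 TMM CPM in overexpression samples, against 0.073, 0.521 and 0 TMM CPM in mock samples. Every overexpression library was above every mock library, and 7 of the 8 mock counts came from mock replicate 2. The log2 fold change was 4.77 (SE 0.66, edgeR's BH-adjusted p = 0.00427), or 27.3-fold. Because this unigene entered the test only through its overexpression libraries, the p-value is given as a description. Without mock replicate 2 the log2 fold change was 6.88. A second, shorter unigene with the same GASA11 match, c115463_g1_i1, had 1, 2 and 3 counts in overexpression samples and no count in mock samples. Setting the mock group to the floor of 3 counts gave a ratio of at least 1.92, a limit set by the floor that leaves out counting error. This unigene did not pass the filter.

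The GASA3-like unigene c61882_g1_i1 was also higher, at a far lower level. Arabidopsis GASA3 is known as a transcript of developing seeds. The unigene had 17, 12 and 19 counts in overexpression samples, against 2, 5 and 2 counts in mock samples, and the groups did not overlap. The level was 1.21 ± 0.29 TMM CPM in overexpression and 0.233 ± 0.122 TMM CPM in mock leaves (SD, n = 3 each). The log2 fold change was 2.32 (SE 0.53, edgeR's BH-adjusted p = 0.034), and this unigene too entered the test only through its overexpression libraries. This call was lost with DESeq2 (adjusted p = 0.0984), limma-voom (0.0676) and the replicate block (0.0862), and without each library in turn except mock replicate 2 (0.0786 to 0.147).

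**Figure D2:**
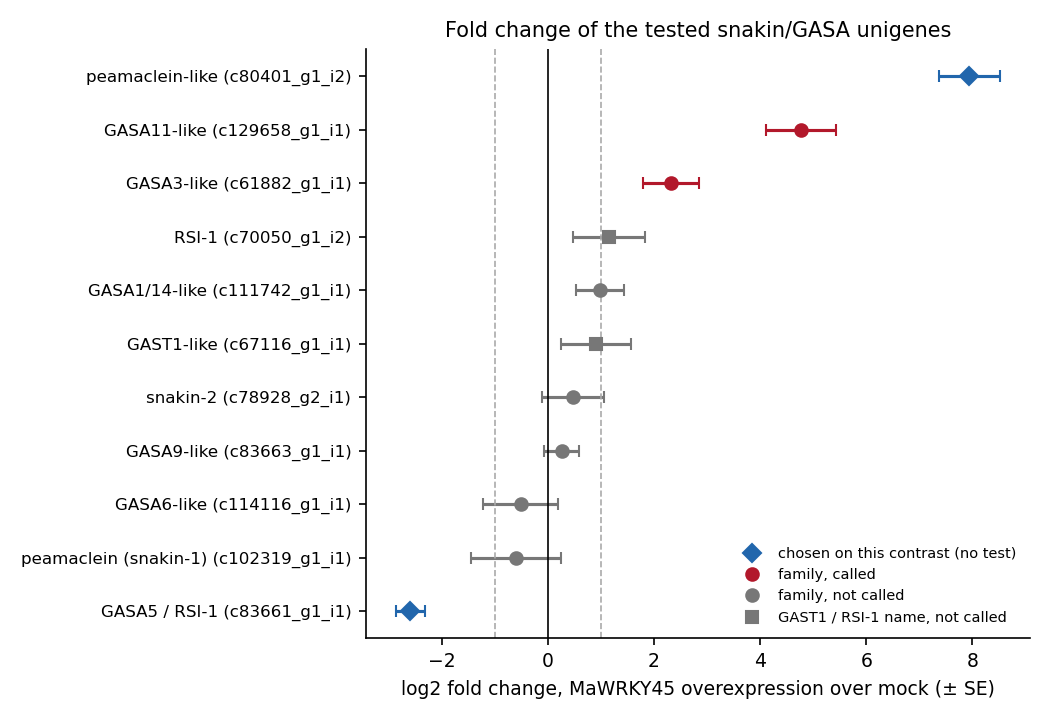
Log2 fold change (± SE) of overexpression over mock for the 9 tested family unigenes and for 2 tested unigenes named GAST1 or RSI-1 that the family rule leaves out. Blue diamonds mark the pair chosen on this contrast, red points the 2 called unigenes, and dashed lines a fold change of 2. Values run from -2.59 for GASA5 to 7.94 for the peamaclein-like unigene, whose fitted value depends on how the near absence of mock counts is handled.

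Snakin-2 (c78928_g2_i1), the family member with the most counts, did not pass the test. Potato snakin-2 is the antimicrobial peptide known to be induced locally by wounding. The unigene had 132, 124 and 103 TMM CPM in overexpression samples, against 68.6, 172 and 17.0 TMM CPM in mock samples. The overexpression libraries were close together and lay inside the range of the mock libraries, where the highest was 10.1 times the lowest. For the 13774 unigenes averaging 10 TMM CPM or more, the median of that ratio was 1.41, and only 0.138% of them had a ratio as large. The log2 fold change was 0.47 (SE 0.58, edgeR's BH-adjusted p = 0.738). It was 1.47 (adjusted p = 0.0725) without mock replicate 2 and -0.02 (0.988) without mock replicate 3.

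A wide spread among mock libraries recurred in other members. The GASA6-like unigene c114116_g1_i1, matched to an Arabidopsis gene that promotes seed germination and cell elongation, had 1.58, 3.22 and 2.95 TMM CPM in overexpression samples, against 0.657, 8.42 and 1.98 TMM CPM in mock samples. Its log2 fold change was -0.51 (SE 0.71, edgeR's BH-adjusted p = 0.774), and the value was 1.00 without mock replicate 2. The other snakin-1 match, peamaclein c102319_g1_i1, had 1.90, 1.46 and 0.369 TMM CPM in overexpression samples, against 0.073, 2.83 and 2.78 TMM CPM in mock samples. Its log2 fold change was -0.59 (SE 0.85, edgeR's BH-adjusted p = 0.78). The groups overlapped in both unigenes, and in both mock replicate 2 was the highest and mock replicate 1 the lowest mock library. Of the 13774 unigenes averaging 10 TMM CPM or more, 5167 were highest in mock replicate 2, 5110 in replicate 3 and 3497 in replicate 1.

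The remaining 2 tested members were steadier. The unigene c111742_g1_i1, matched to Arabidopsis GASA1 and to an *N. benthamiana* protein named gibberellin-regulated protein 14, had 3.25, 3.81 and 1.92 TMM CPM in overexpression samples, against 2.26, 0.745 and 1.53 TMM CPM in mock samples. Its groups overlapped through overexpression replicate 3 and mock replicate 1, and the log2 fold change was 0.98 (SE 0.45, edgeR's BH-adjusted p = 0.275). The GASA9-like unigene c83663_g1_i1 had 6.97, 4.39 and 8.04 TMM CPM in overexpression samples, against 6.57, 6.18 and 3.32 TMM CPM in mock samples. Its groups overlapped almost fully, and the log2 fold change was 0.26 (SE 0.33, edgeR's BH-adjusted p = 0.745).

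The last 4 family unigenes did not pass the filter and held 6 counts or fewer in either group. Besides the second GASA11 match, these were a pair of unigenes matched to GASA14, an Arabidopsis gene known for its role in growth and stress tolerance, and a short second match to GASA1. The GASA14 matches had 2 and 2 counts over the overexpression samples, against 2 and 0 counts over the mock samples, and the GASA1 match had 1 count in each group. No fold is given for these 3, since both groups were at or under the floor of 3 counts.

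Each of the pair shared a best match with other unigenes, whose values are given side by side. Potato snakin-1 was the UniProt match of c80401_g1_i2, at 8.78 ± 1.27 TMM CPM in overexpression and 0.0248 ± 0.0430 TMM CPM in mock leaves, and of c102319_g1_i1, at 1.25 ± 0.79 and 1.90 ± 1.58 TMM CPM in overexpression and mock leaves (SD, n = 3 each). Arabidopsis GASA5 was matched by c83661_g1_i1 and also by c67116_g1_i1, a unigene named after tomato GAST1 in UniProt and therefore outside the naming rule. The GAST1-like unigene had 13.2, 5.86 and 4.06 TMM CPM in overexpression samples, against 1.90, 8.94 and 1.35 TMM CPM in mock samples. Its groups overlapped, and the log2 fold change was 0.91 (SE 0.65, edgeR's BH-adjusted p = 0.525). It was 2.22 (0.0259) without mock replicate 2, but edgeR's adjusted p was 0.334 to 0.919 without each other library in turn. With DESeq2 and limma-voom the adjusted p was 0.899 and 0.363. The RSI-1 name was shared by c83661_g1_i1 and c70050_g1_i2, which had 2.46, 1.76 and 0.295 TMM CPM in overexpression samples against 1.02, 0.596 and 0.359 TMM CPM in mock samples (log2 fold change 1.15, SE 0.68, edgeR's BH-adjusted p = 0.42). One more contig with both the RSI-1 and the GASA5 match, c154989_g1_i1, had 3 counts over the overexpression samples against 1 count over the mock samples and did not pass the filter. The difference between the responses of these unigenes was not tested, because the first of each pair was chosen for its own.

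Levels of different unigenes were compared per length, in the deposited FPKM. In overexpression leaves snakin-2 came first with 280 ± 27 FPKM, followed by the peamaclein-like unigene with 21.0 ± 3.2 FPKM and the GASA11-like unigene with 16.7 ± 4.0 FPKM (SD, n = 3 libraries each). The libraries of snakin-2 were all above those of the peamaclein-like unigene, whereas the ranges of the second and the third overlapped. GASA5 followed at rank 5 with 6.50 ± 1.56 FPKM, and its range overlapped with that of its neighbours, GASA9-like (8.91 ± 2.73 FPKM) and GASA6-like (6.12 ± 2.17 FPKM). GASA5 was ranked only as a member of the pair, since its UniProt name, RSI-1, lies outside the naming rule. The GAST1-like unigene c67116_g1_i1, left unranked by that rule, had 10.3 ± 6.2 FPKM in overexpression and 5.06 ± 5.27 FPKM in mock leaves. Ranks therefore depend on which unigenes the family includes.

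In mock leaves the same measure put snakin-2 first (188 ± 173 FPKM) and GASA5 second (36.2 ± 7.6 FPKM). The ranges of these overlapped because snakin-2 was at 36.9 FPKM in mock replicate 3, where GASA5 was at 29.3 FPKM. The libraries of GASA5 were all above those of the GASA6-like unigene in the third place (8.04 ± 9.08 FPKM). The GASA11-like and GASA3-like unigenes followed near the end with 0.523 ± 0.748 and 0.430 ± 0.227 FPKM, and the peamaclein-like unigene was last of the 9 tested members, with 0, 0.17 and 0 FPKM in the 3 libraries.

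**Figure D3:**
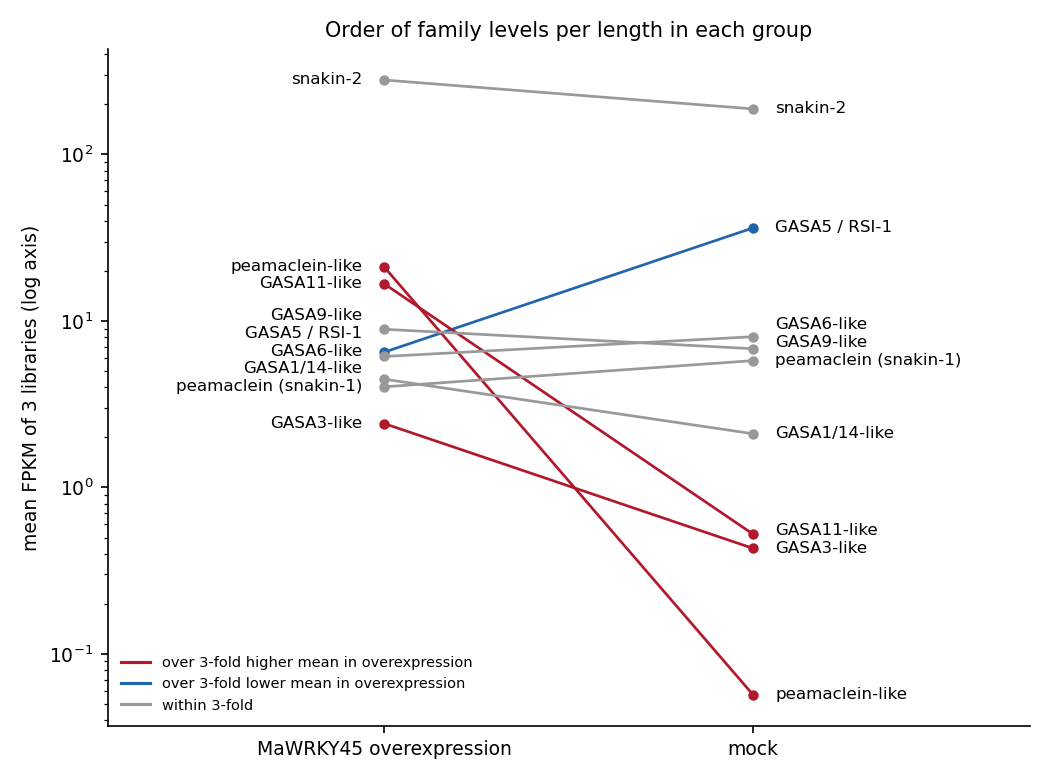
Mean FPKM of 3 libraries (log axis) for the 9 tested family unigenes in overexpression (left) and mock (right) leaves, with each line joining the values of 1 unigene. The peamaclein-like unigene is second at 21.0 FPKM in overexpression leaves and last in mock leaves, GASA5 is at rank 5 with 6.50 FPKM in overexpression leaves and second at 36.2 FPKM in mock leaves, and snakin-2 is first in both.

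Summed over the 13 unigenes, the family reached 374, 365 and 318 FPKM in overexpression samples, against 202, 459 and 86.3 FPKM in mock samples, and the groups overlapped. Apart from GASA5, unigenes named GAST1 or RSI-1 were not in this sum. Snakin-2 made up between 78.3 and 80.3% of the sum in overexpression samples and 74.5, 82.0 and 42.7% of it in mock replicates 1, 2 and 3. Without snakin-2 the sum was 73.7, 74.7 and 69.2 FPKM in overexpression samples, against 51.5, 82.6 and 49.4 FPKM in mock samples. Within the sum the larger share of the pair differed between the groups, and the pair was chosen for its opposite directions. The peamaclein-like unigene held between 4.77 and 6.66% in overexpression samples and at most 0.037% in mock samples, while GASA5 held between 1.36 and 2.16% in overexpression samples and between 9.67 and 34.0% in mock samples.

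The members also had annotation in common that the naming rule did not use. All 13 carried a GO term for the extracellular region, the cell wall or the apoplast, and all 13 a GO term that mentions gibberellin. The GASA domain stood in the Pfam column of 12 of them, the exception being the shortest, c172943_g1_i1, of 202 bases. These terms were transferred by the authors from similar proteins and are not measurements of the leaves. Reads of near-identical copies may have been divided among contigs by the counting, so the values of single members with the same best match are uncertain to that extent.

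By correlation of log2(TMM CPM + 1) over the 6 libraries, the unigenes most like each of the pair were found among 22665 tested unigenes with a *Nicotiana* or *Solanum* match and an average of 1 TMM CPM or more. For the peamaclein-like unigene these were a deacetoxyvindoline 4-hydroxylase-like unigene (c96828_g8_i1, r = 0.998), the nitrate transporter-like NRT1/PTR FAMILY 7.3 (c98684_g2_i1, r = 0.998), 2 uncharacterized unigenes (c87558_g1_i2 and c98302_g6_i4, r = 0.996 each) and a subunit of nuclear transcription factor Y (c95658_g3_i4, r = 0.996). For GASA5 these were the wall-degrading endoglucanase 3 (c162172_g1_i1, r = 0.997), a class IV heat shock protein (c93979_g1_i4, r = 0.997), an RNA helicase named after DEAH5 (c100493_g6_i1, r = 0.996), a chloroplast NDH subunit (c30076_g1_i2, r = 0.996) and an uncharacterized unigene (c95753_g1_i1, r = 0.995). Between the pair r was -0.984, and between the peamaclein-like and the GASA11-like unigenes 0.979. With 3 libraries in each of 2 groups, such values mostly restate the difference between the groups, and the points share libraries and depth.

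Gibberellin synthesis and signalling genes were looked at beside the family that bears the hormone's name. Of 57 such unigenes 29 were tested, and 2 were called, both up, with a median log2 fold change of -0.02. Over all tested unigenes the share called was 4.59%, with 1.92% up, and the count among the gibberellin unigenes ran from 1 to 8 under the alternatives. Gibberellin 2-beta-dioxygenase 1 (c97045_g3_i1), of the enzyme class that inactivates gibberellins, had 5.39, 3.66 and 3.76 TMM CPM in overexpression samples, against 0.803, 0.521 and 0.808 TMM CPM in mock samples. The groups did not overlap, and the log2 fold change was 2.57 (SE 0.37, edgeR's BH-adjusted p = 0.00495). The DELLA protein GAI (c67237_g1_i1), a repressor of gibberellin responses, had 6.89, 6.44 and 5.24 TMM CPM in overexpression samples, against 2.48, 1.71 and 1.53 TMM CPM in mock samples. Its log2 fold change was 1.69 (SE 0.31, edgeR's BH-adjusted p = 0.0129), a call that was lost without overexpression replicate 1 (0.0532) and replicate 2 (0.0514). These were the only calls among the 8 tested GA 2-oxidases and the 7 tested DELLA unigenes. Log2 fold changes ran from -0.70 to 2.57 in the first class and from -0.84 to 1.69 in the second.

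None of the 4 tested unigenes of the ent-kaurene steps, the 1 tested GA 20-oxidase, the 3 GA 3-oxidases and the 6 receptor or receptor-partner unigenes was called by edgeR. Their log2 fold changes ranged from -1.60 to 1.97. At an unadjusted p under 0.05, edgeR found 9 of the 29 gibberellin unigenes higher and 5 lower, against 8.54% higher and 10.3% lower among all tested unigenes. DESeq2 called 2 up and 2 down, where it called 4.01% of all unigenes with an adjusted p, and limma-voom called 2 up and 1 down, where it called 3.66% of all.

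Other cysteine-rich peptide families gave mixed counts, beside 1.92% called up and 2.67% called down among all tested unigenes. Of 13 tested defensin-named unigenes 1 was called up and 3 down, with a median log2 fold change of -0.51. Of 21 tested non-specific lipid-transfer proteins 2 were called up and 4 down, with a median of -0.40. No unigene with a *Nicotiana* or *Solanum* match carried the name hevein. Whether the snakin/GASA family differs from these families was not tested.

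**Figure D4:**
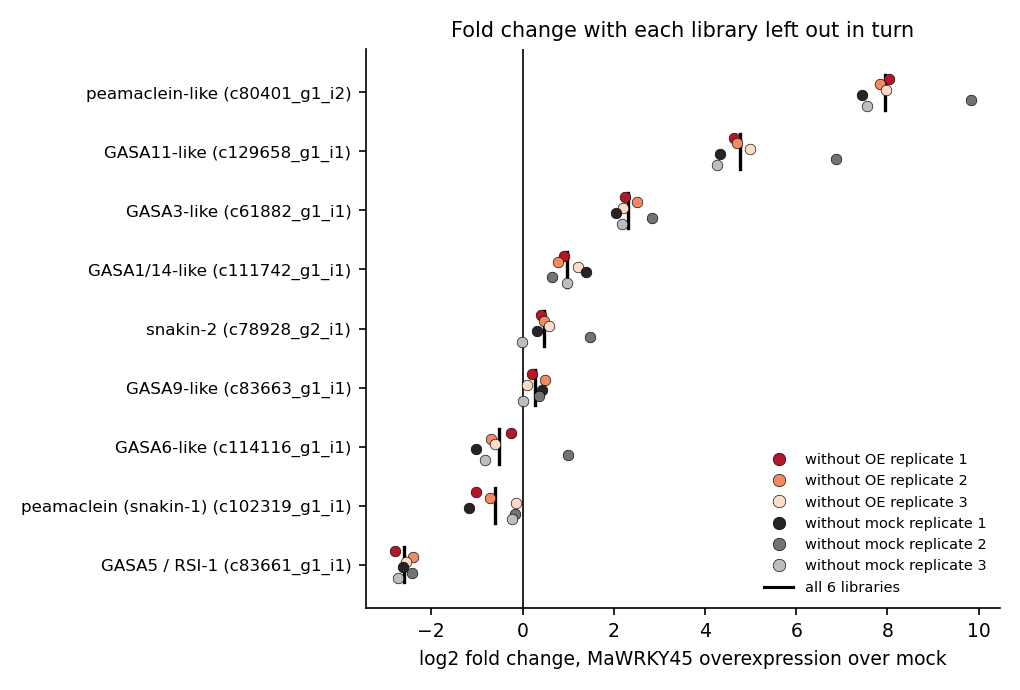
Log2 fold change of the 9 tested family unigenes with all 6 libraries (black line) and with each library left out in turn (points coloured by the library left out). GASA5 stays between -2.80 and -2.41 and the peamaclein-like unigene between 7.44 and 9.83, while the GASA6-like unigene moves to 1.00 without mock replicate 2 and snakin-2 to -0.02 without mock replicate 3. The pair was chosen on these same libraries, so its kept directions are no support.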

How the data were processed

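According to the study's methods, the authors trimmed the paired reads with Trimmomatic, assembled them de novo with Trinity, removed redundancy with CD-HIT-EST, aligned the reads with Bowtie2 and estimated abundance with RSEM. The deposited counts (fragments assigned to each unigene, unnormalized) equal the deposited expected counts, which are all whole numbers, in all 6 libraries. The authors' FPKM values were used only to compare levels between unigenes and to sum the family in each library. They were not scaled by TMM here. Names come from the deposited annotation.

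Counts were tested by quasi-likelihood (edgeR 4.0.16 under R 4.3.3, with glmQLFit and glmQLFTest after filterByExpr and TMM scaling) over 37201 unigenes holding 98.4% of the counts, with Benjamini-Hochberg adjustment over all of them. SEs were derived from the F statistic. The common dispersion was 0.0706. The fit was tested on simulated data. Counting intervals are exact binomial (95%). An exact permutation test of 3 against 3 cannot give a p under 0.10 and was not run. Alternatives were DESeq2 1.42.0, limma-voom (limma 3.58.1), other scalings and filters, a replicate block, and each library left out.

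The members, lists and tests were chosen with earlier results of these data known. Named unigenes are the pair, family unigenes that average 1 TMM CPM or more or are called, called gibberellin unigenes, and the 5 most correlated with each of the pair. Unigenes named GAST1 or RSI-1 were added after seeing the data. RT-qPCR was not analysed here.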

Additional observations from a re-analysis of the deposited data

How the results depend on the processing

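Both members of the pair kept their direction under all 14 alternatives. This adds no support, since the pair was chosen for its directions in these libraries, whose groups did not overlap in either unigene. The fitted log2 fold change was 7.94 for the peamaclein-like unigene (7.44 to 9.83 with a library left out, the highest without mock replicate 2, where no mock count remained) and -2.59 for GASA5 (-2.80 to -2.41). The number of other family unigenes called, 2 and both up, was 1 with DESeq2, limma-voom, at least 1 CPM in 3 libraries and the replicate block, and 1 to 2 with a library left out. The unigene lost was the GASA3-like one each time. Both called unigenes had passed the filter only through the overexpression group, so the calls that were kept are a description and add no support. None of the other family unigenes was called down under any of these alternatives. Their median log2 fold change of 0.47 ranged from 0.01 to 1.00 with a library left out. Of members that were not called, peamaclein c102319_g1_i1 turned to 0.22 and the GASA6-like unigene to 0.15 under limma-voom. The GASA6-like unigene also turned to 0.0014 under the replicate block and ranged from -1.02 to 1.00 with a library left out, the highest without mock replicate 2. Snakin-2 ranged from -0.021 without mock replicate 3 to 1.47 without mock replicate 2. The causes were not tested. Called gibberellin unigenes numbered 4 with DESeq2, 8 without the filter and 1 to 7 with a library left out, against 2, and other cysteine-rich peptides 5 to 15, against 10. Scaling by library size alone moved the median of all tested unigenes from -0.01 to 0.11 and changed no call in the family. Replicate numbers gave no sign of a pairing, as the deviations of same-numbered libraries correlated at -0.11, -0.13 and -0.09. With 3 libraries in each group this check cannot exclude a pairing. The block left 1430 unigenes called, against 1706. For the 3 family unigenes with at most 3 counts in each group, a difference was not detectable at this depth.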

Other observations

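The Pfam column gives the GASA domain to 24 unigenes, of which 15 have a snakin, gibberellin-regulated, GAST1 or RSI-1 name in UniProt. The other 9 carry unrelated names, and 7 of these are retrovirus-related Pol polyproteins of transposons. The domain label alone therefore adds unrelated names and also misses c172943_g1_i1 and c70050_g1_i2, which have such a name without the label. Among unigenes with a GASA label and an unrelated name, c101321_g3_i1 was the only one tested, with 18.6, 20.9 and 19.1 TMM CPM in overexpression samples, against 24.3, 22.5 and 21.0 TMM CPM in mock samples (log2 fold change -0.21, SE 0.17, edgeR's BH-adjusted p = 0.585). It was singled out after its values were seen.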
